A study of Mus musculus with 12 samples.

Results

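Phospholipase C beta and gamma genes were examined by RNA-seq in bone marrow-derived dendritic cells (BMDCs) of mice with and without a Cre-driven deletion of the β2 integrin chain CD18 in CD11c-expressing cells. The group comprised 6 of the 41709 genes in the deposited tables, namely Plcb1, Plcb2, Plcb3, Plcb4, Plcg1 and Plcg2. Plcb4 was picked because its reads came almost only from CD18-deleted libraries, so its values between the genotypes are given as a description without a test. The other 5 genes were taken by family name. Mice of all groups were homozygous for a floxed CD18 allele (CD18 fl/fl). CD18 CD11c cKO mice (labelled fl/fl Cre+) carried in addition a Cre recombinase transgene under the control of CD11c, a gene active in dendritic cells and other myeloid cells, and Cre-negative fl/fl mice (fl/fl Cre-) served as controls. Bone marrow cells were grown with GM-CSF for 10 days, left untreated or given 100 ng/mL LPS, and MHCII+ cells were isolated. The labels give 24 h of LPS, whereas the study's methods describe overnight stimulation. Each of the 4 groups had 3 libraries, numbered 1 to 3. The labels do not say whether these came from separate mice, so p-values measure the spread between these libraries, which may be technical. Since only cKO mice carried Cre, the transgene itself and the loss of CD18 cannot be told apart.

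Phospholipase C enzymes cleave the membrane lipid PIP2 into IP3, which releases calcium from the endoplasmic reticulum, and diacylglycerol, which recruits protein kinase C and RasGRP proteins. The β isoforms are switched on by G protein-coupled receptors through Gq proteins and, for Plcb2 and Plcb3, also through Gβγ. The γ isoforms are switched on by tyrosine phosphorylation downstream of immune receptors and integrins. Plcg2 is the predominant γ isoform in B cells and myeloid cells, Plcb2 is typical of blood cells, and Plcb1 and Plcb4 are best known from the brain.

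Itgb2, which encodes CD18, was lower in cKO BMDCs but still read in every cKO library. In the unstimulated libraries it ranged from 379 to 420 CPM (reads scaled to library size with TMM factors) in fl/fl and from 120.45 to 189 CPM in cKO BMDCs, corresponding to -1.29 on the log2 scale (SE, the standard error, 0.17, edgeR adjusted p = 0.00392) with the replicate number as a block and an adjusted p of 0.0887 without it. After LPS it ranged from 167 to 266 CPM in fl/fl and from 89.7 to 119 CPM in cKO BMDCs (log2 fold change -0.91, adjusted p = 0.0201 with the block and 0.428 without). Total gene reads per library lay between 29689149 and 34037178, and the floor of 3 reads, below which a gene was taken as not detected, equalled 0.0881 to 0.101 CPM depending on the library. Since PCR copies were not marked by molecular identifiers, floors and intervals cover counting error only. Of the 10 dendritic cell markers listed, all were above the floor in at least 1 library. The same held for all 10 markers each of macrophages, of neutrophils, and of mast cells and basophils. The MHCII genes Cd74 and H2-Ab1 were at least 1930 and 4237 CPM in every library. Replicate 3 stood apart from replicates 1 and 2 in every group. The summed dendritic cell markers were lowest in replicate 3 of each group. In fl/fl they were 16061 CPM against 25107 and 25231 CPM without LPS, and 16024 CPM against 33597 and 45775 CPM with LPS. In cKO BMDCs they were 21204 CPM against 36737 and 25545 CPM without LPS, and 21658 CPM against 27519 and 26764 CPM with LPS. Of the marker lists for other cell types (8 or 10 genes each), those for B cells and neutrophils were lower in replicate 3, and those for mast cells and basophils and for stromal cells were higher. The erythroid list was higher in replicate 3 of cKO BMDCs, with 15.1 CPM without and 23.8 CPM with LPS against 1.33 to 2.56 CPM in the other cKO libraries, whereas replicate 3 of fl/fl BMDCs had 1.18 and 1.96 CPM. For unstimulated BMDCs, the summed B cell markers were about 1.04 CPM in replicate 3 of both genotypes and between 31.3 and 139 CPM in the other libraries. The summed neutrophil markers were 11.4 and 12.7 CPM against 112.52 to 1322 CPM, the mast cell and basophil markers 95.3 and 184 CPM against 38.3 to 52.7 CPM, and the stromal markers 47.8 and 74.1 CPM against 2.46 to 2.72 CPM. The part of these cells in the results was not tested. In bulk samples, fewer cells of a type and less RNA per cell cannot be told apart.

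The sequences directly upstream of 3 of the genes are shown because Plcb4 was the gene with the genotype pattern and Plcb2 and Plcg2 were the genes that carried most of the phospholipase C reads and fell after LPS. Each run holds the 250 bases before the gene start of GENCODE vM39 on GRCm39, 5′ to 3′ on the strand of the gene (plus for Plcb4 and Plcg2, minus for Plcb2). Capitals mark a match to a motif searched on both strands.
Plcb4, chr2:135500676-135500925: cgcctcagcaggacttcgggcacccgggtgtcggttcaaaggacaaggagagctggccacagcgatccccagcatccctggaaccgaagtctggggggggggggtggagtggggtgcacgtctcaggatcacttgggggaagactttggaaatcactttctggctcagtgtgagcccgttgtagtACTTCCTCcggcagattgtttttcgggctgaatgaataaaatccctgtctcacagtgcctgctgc
Plcb2, chr2:118559112-118559361: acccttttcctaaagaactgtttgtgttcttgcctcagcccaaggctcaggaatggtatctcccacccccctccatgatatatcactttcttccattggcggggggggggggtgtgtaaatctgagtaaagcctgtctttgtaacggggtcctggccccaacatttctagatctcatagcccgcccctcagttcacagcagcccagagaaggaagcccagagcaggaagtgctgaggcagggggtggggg
Plcg2, chr8:118224738-118224987: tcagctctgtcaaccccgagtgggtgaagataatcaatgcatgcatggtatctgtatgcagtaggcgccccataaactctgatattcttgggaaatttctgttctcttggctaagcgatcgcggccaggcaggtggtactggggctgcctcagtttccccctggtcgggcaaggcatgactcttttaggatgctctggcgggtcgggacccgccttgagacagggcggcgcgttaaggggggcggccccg
The motifs were GAGGAAGT (bound by PU.1, the ETS factor of myeloid cells), the κB motif of NF-κB and TATAAA. The window of Plcb4 held 1 match, an inverted GAGGAAGT that begins 65 bases before the gene start. No exact match to a motif was found in the windows of the other 5 genes, and near matches were not counted. The window of Plcb2, for example, holds caggaagt, which differs from GAGGAAGT in the first letter only. Among 21770 windows of the same length, one for each protein-coding gene, 2.13% held GAGGAAGT, 0.386% the κB motif and 12.5% TATAAA. The windows of Plcb4, Plcg2 and Plcb2 held 10, 14 and 3 CpG dinucleotides, respectively, against a median of 6 (quartiles 2 and 13) over all windows. A match describes the letters and is not evidence of binding.

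Plcb4 (ENSMUSG00000039943, chromosome 2, 135500931 to 135856513, plus strand, 45 exons in the files' annotation) encodes PLCβ4. It had 0, 1 and 0 reads in the 3 unstimulated fl/fl libraries and 35, 32 and 117 reads in the unstimulated cKO libraries. After LPS, it had 0, 3 and 5 reads in fl/fl and 50, 26 and 73 reads in cKO BMDCs. The genotypes did not overlap in either state, as was the case in this direction for 11.7% of all genes tested without and 9.51% with LPS, and in fl/fl BMDCs only replicate 3 after LPS had more reads than the floor. The cKO means were 1.90 ± 1.29 CPM unstimulated and 1.85 ± 0.616 CPM after LPS (SD, n = 3). With reads summed over the 3 libraries of a group and scaled for depth, cKO held 23.3 times the Plcb4 reads of fl/fl after LPS (149 against 8 reads). Unstimulated, the ratio was 225 (184 against 1 read) and rests on that 1 fl/fl read. These ratios are a description and carry no interval.
This pattern chose the gene. For comparison, only 3 genes in the files had every cKO library above every fl/fl library with a ratio of the group means of at least 10 in both states: Plcb4, Clec18a and Gm10184. Clec18a had between 2 and 9 reads in the cKO libraries and at most 1 read in the fl/fl libraries. Gm10184 had between 169 and 3303 reads in the cKO libraries and between 0 and 62 in the fl/fl libraries. The reverse pattern was found in 2 genes, Nos3 and Rtl8c. These are counts of 41709 genes, of which 20634 had a read in any library.

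**Figure D1:**
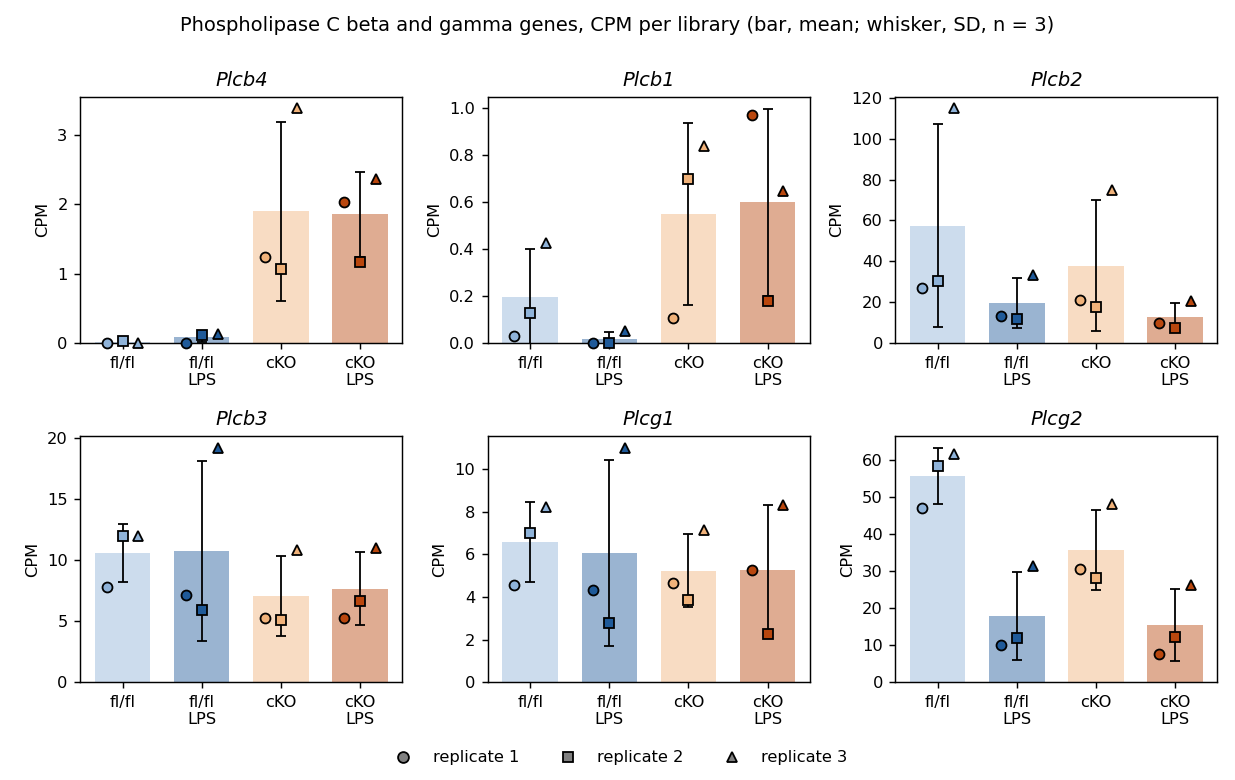
Normalized expression (CPM, y axis) of the 6 phospholipase C genes in the 4 groups; each point is a library with its replicate number as the symbol, bars are means and whiskers SD (n = 3). Plcb4 is near 0 in all fl/fl libraries and between 1.07 and 3.38 CPM in all cKO libraries, Plcg2 is lower after LPS in both genotypes, and replicate 3 is the highest library of each group for Plcb2.

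All 342 Plcb4 reads of the 12 libraries mapped to a single place in the genome, and total and unique reads were the values that chose the gene. The split of these reads into exon, junction and intron reads had not been used to pick it. In unstimulated cKO BMDCs, 156 of 184 reads were exonic and 111 (60.3%, Wilson 95% interval 53.1 to 67.1%) crossed an exon-exon junction. Intron reads made up 28 of the 184 (15.2%, interval 10.7 to 21.1%). They were not evenly spread, with 10 of 35 reads in replicate 1, 14 of 32 in replicate 2 and 4 of 117 in replicate 3. In LPS-treated cKO BMDCs, all 149 reads were exonic and 55 (36.9%, interval 29.6 to 44.9%) crossed a junction. These were 17 of 50 reads in replicate 1, 3 of 26 in replicate 2 and 35 of 73 in replicate 3. Of the 149 reads, 0 were intronic (Wilson 95% interval 0 to 2.51%). The intervals pool the reads of 3 libraries and do not cover the spread between libraries. Of the 9 reads in fl/fl BMDCs, 6 crossed a junction. For the 4 abundant genes, junction reads made up 55.4% (Plcb2), 79.3% (Plcb3), 68.8% (Plcg1) and 83.0% (Plcg2) of all reads, and intron reads between 1.68% and 4.37%.

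Plcb1 (ENSMUSG00000051177, chromosome 2, 134627987 to 135317178, plus strand), which encodes PLCβ1, ends 183.75 kb before Plcb4 begins. It had 1, 5 and 16 reads in unstimulated and 0, 0 and 2 reads in LPS-treated fl/fl libraries, and 3, 21 and 29 reads in unstimulated and 24, 4 and 20 reads in LPS-treated cKO libraries. The genotypes overlapped without LPS and did not overlap after LPS (higher in cKO without overlap in 9.51% of all genes tested). In contrast to Plcb4, 73 of the 101 Plcb1 reads in cKO BMDCs lay in introns (72.3%, interval 62.9 to 80.1%), 12 crossed a junction and 78 mapped uniquely. None of the 24 Plcb1 reads in fl/fl BMDCs crossed a junction. Unstimulated, the log2 fold change between the genotypes was 1.57 (SE 1.22, edgeR adjusted p = 0.556) and 1.76 with the block (adjusted p = 0.292). After LPS, Plcb1 did not pass the filter on low counts in this comparison. With reads summed over the libraries and scaled for depth, cKO held 2.95 times the Plcb1 reads of fl/fl without LPS (53 against 22 reads). After LPS, the ratio was 30.0 (48 against 2 reads) and rests on those 2 fl/fl reads. As for Plcb4, these ratios describe summed reads, leave out the spread between libraries and carry no interval.

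**Figure D2:**
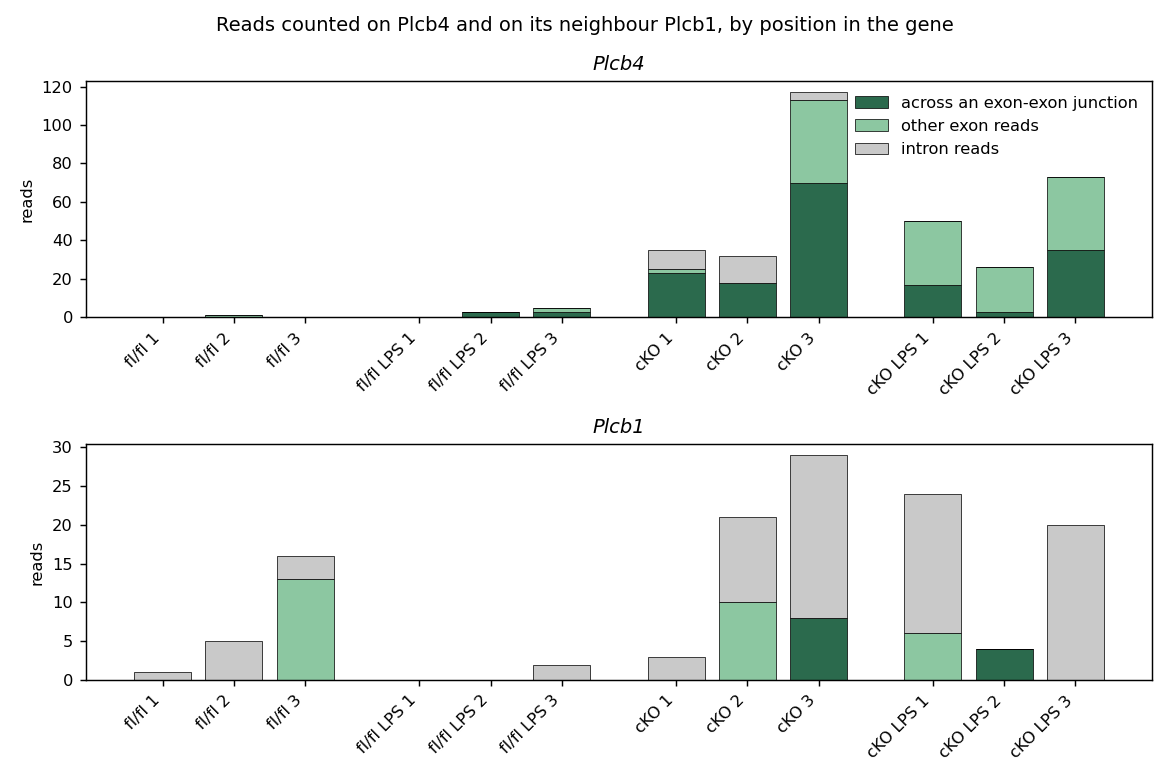
Reads (y axis) counted on Plcb4 and on Plcb1 in each of the 12 libraries (x axis), split into reads across an exon-exon junction, other exon reads and intron reads. Plcb4 reads are mostly exonic in all 6 cKO libraries, whereas 73 of the 101 Plcb1 reads of the cKO libraries are intronic.

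Around Plcb4, 18 genes lie within 1 Mb in the files, and 5 of them had over 10 reads in any library: Plcb1, Snap25, Mkks, Slx4ip and the gene listed as ENSMUSG00000115423. The 3 long noncoding genes inside the Plcb4 span had 0 reads in all 12 libraries, and so did Lamp5, the nearest protein-coding gene after it. Snap25 had between 0 and 11 reads per library. Mkks, which encodes a chaperonin-like protein, averaged 4.50 CPM in fl/fl and 9.79 CPM in cKO BMDCs without LPS, and 7.14 and 16.2 CPM with LPS. ENSMUSG00000115423, which overlaps Mkks on the same strand and can share its reads, averaged 22.4 and 46.6 CPM without and 51.2 and 91.3 CPM with LPS. Slx4ip averaged 4.95 and 4.55 CPM without and 16.1 and 16.8 CPM with LPS. Over the 12 libraries, the profiles closest to that of Plcb4 on the log2 CPM scale were those of Ppil1, Hint1, Rpl17, C1d and Rpl35a (Pearson's r between 0.947 and 0.950, of 13752 genes). All 5 were abundant in fl/fl BMDCs as well. Ppil1, a cyclophilin-type prolyl isomerase, averaged 21.3 CPM in unstimulated fl/fl and 50.2 CPM in unstimulated cKO BMDCs. Among the other phospholipase C genes, Plcb1 had an r of 0.70 with Plcb4 (rank 631), and the other four had values between -0.29 and -0.07. These correlations describe 12 libraries that share 4 groups and the replicate numbers.

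Levels of different genes were compared by RPKM, which divides by exon length. Plcg2 and Plcb2 made up most of the phospholipase C signal in every group. In unstimulated fl/fl BMDCs the mean RPKM was 15.9 for Plcg2, 13.4 for Plcb2, 2.49 for Plcb3, 1.36 for Plcg1, 0.0191 for Plcb1 and 0.00197 for Plcb4. The ranges of Plcg2 and Plcb2 overlapped, as did those of Plcb1 and Plcb4, and the other neighbours in this order did not overlap. In unstimulated cKO BMDCs the order was Plcg2 (8.02), Plcb2 (7.20), Plcb3 (1.33), Plcg1 (0.866), Plcb4 (0.306) and Plcb1 (0.0246). Here only Plcb2 and Plcb3, and Plcb4 and Plcb1, had ranges apart, and the range of Plcb4 overlapped that of Plcg1. With LPS, the order of the 4 abundant genes was the same in both genotypes, with overlapping ranges between neighbours. The means were 4.19, 3.72, 2.09 and 1.05 RPKM in fl/fl and 2.98, 1.96, 1.23 and 0.757 RPKM in cKO BMDCs for Plcg2, Plcb2, Plcb3 and Plcg1, respectively. Plcb4 made up 0.00693% ± 0.012 of the summed RPKM of the 6 genes in unstimulated fl/fl, 0.151% ± 0.163 in LPS-treated fl/fl, 1.48% ± 0.597 in unstimulated cKO and 4.49% ± 1.80 in LPS-treated cKO BMDCs (SD, n = 3). Its largest share in a single library was 6.55%.

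In either genotype, LPS-treated BMDCs were set against untreated ones. The 2 main genes, Plcg2 and Plcb2, were lower after LPS in all 3 same-numbered pairs of both genotypes. Plcb3 and Plcg1 were lower in 2 of 3 pairs in fl/fl BMDCs and in 0 and 1 of 3 pairs, respectively, in cKO BMDCs. The calls below rest on the fit with the replicate number as a block. Deviations from the group means correlated between same-numbered libraries. Since replicate 3 stood apart in every group, this cannot show that replicates 1 and 2 are paired by number. Without the block, edgeR called 0 of 4 members tested in fl/fl and 0 of 6 in cKO BMDCs at an adjusted p under 0.05, where 3.89% and 3.99% of all genes tested were called. DESeq2, also without a block, called Plcg2 in fl/fl BMDCs (adjusted p = 0.0115) and 0 members in cKO BMDCs. With the block, 2 of 4 in fl/fl and 2 of 6 in cKO BMDCs fell, where 12.8% and 20.2% of all genes changed in either direction and 6.43% and 9.93% fell. Plcb4 and Plcb1 did not pass the filter on low counts in fl/fl BMDCs. The summed markers of macrophages were lower after LPS as well, but not every marker was. Adgre1 went the other way in fl/fl BMDCs, from between 407 and 491 CPM to between 554 and 641 CPM. In cKO BMDCs its ranges overlapped (216 to 357 CPM without and 265 to 325 CPM with LPS). With the block, 5 of 10 macrophage markers in fl/fl and 6 of 10 in cKO BMDCs fell and 0 rose (median log2 fold change -2.34 and -2.35). Without the block, edgeR called 4 of 10 lower in each genotype. The summed macrophage markers went without overlap from between 2016 and 2337 CPM to between 1169 and 1379 CPM in fl/fl, and from between 1854 and 2449 CPM to between 554 and 943 CPM in cKO BMDCs, and none of the 10 was at or under the floor in all libraries. With the block, 2 of 5 tested B cell markers (median -1.42 and -1.45), 1 of 6 neutrophil markers (-2.21 and -1.79) and 1 of 3 T and NK cell markers (-1.93 and -1.38) fell in fl/fl and cKO BMDCs, respectively. Of the mast cell and basophil markers, 1 rose and 2 fell of 5 tested in fl/fl, and 1 rose and 0 fell of 7 in cKO BMDCs. The part of these cells in the lower Plcg2, Plcb2 and pathway gene levels was not tested.

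Plcg2 (ENSMUSG00000034330, chromosome 8, 118225030 to 118361881, plus strand) encodes PLCγ2, which acts downstream of Syk and Btk. It measured 47.1, 58.4 and 61.5 CPM in unstimulated and 10.1, 11.9 and 31.4 CPM in LPS-treated fl/fl libraries. In cKO libraries it measured 30.6, 28.2 and 48.1 CPM without and 7.49, 12.3 and 26.2 CPM with LPS. No LPS-treated library reached the level of an untreated library of its genotype, which held in this direction for 15.9% (fl/fl) and 13.4% (cKO) of all genes. Replicate 3 was the highest after LPS in both genotypes. In fl/fl BMDCs the log2 fold change was -1.63 (SE 0.46, edgeR adjusted p = 0.0962) without the block and -1.82 (SE 0.33, adjusted p = 0.0229) with it. In cKO BMDCs it was -1.24 (SE 0.50, adjusted p = 0.214) without and -1.41 (SE 0.27, adjusted p = 0.0136) with the block. Both calls held with an offset for exon length added to the block (edgeR adjusted p = 0.0215 and 0.0151), and both rest in part on single replicate numbers. With the block, the adjusted p was 0.0825 in fl/fl BMDCs without replicate 2 and 0.0735 in cKO BMDCs without replicate 1.

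Plcb2 (ENSMUSG00000040061, chromosome 2, 118537998 to 118558919, minus strand) encodes PLCβ2, the Gβγ-responsive isoform of blood cells. Its values were 27.1, 30.2 and 115 CPM in unstimulated and 13.4, 11.7 and 33.5 CPM in LPS-treated fl/fl libraries. In cKO libraries it measured 21.2, 17.7 and 74.8 CPM without and 9.76, 7.27 and 20.4 CPM with LPS. The groups overlapped, and replicate 3 held between 2.39 and 4.01 times the mean of replicates 1 and 2 in every group. Within the same replicate number, the LPS-treated library held 0.494, 0.387 and 0.291 of the untreated value in fl/fl and 0.460, 0.410 and 0.272 in cKO BMDCs. The log2 fold change in fl/fl BMDCs was -1.54 (SE 0.68, edgeR adjusted p = 0.222) without and -1.39 (SE 0.24, adjusted p = 0.0200) with the block. In cKO BMDCs it was -1.63 (SE 0.66, adjusted p = 0.215) without and -1.48 (SE 0.21, adjusted p = 0.00554) with the block. The call in fl/fl BMDCs was lost with the block when replicate 2 was left out (edgeR adjusted p = 0.0833), whereas the call in cKO BMDCs held without each replicate number in turn.

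Plcb3, Plcg1 and, in cKO BMDCs, Plcb4 did not pass the test after LPS. Plcb3 (ENSMUSG00000024960, chromosome 19, 6929693 to 6953838, minus strand), another Gq and Gβγ target, averaged 10.6 ± 2.41 and 10.8 ± 7.37 CPM without and with LPS in fl/fl, and 7.08 ± 3.26 and 7.66 ± 3.00 CPM in cKO BMDCs (SD, n = 3). Its log2 fold change with the block was -0.14 (SE 0.37) in fl/fl and 0.09 (SE 0.27) in cKO BMDCs. Ppp1r14b, with 365 to 2590 reads per library, overlaps the 5′ end of Plcb3 on the other strand, and without strand information reads of both cannot be told apart there. Plcg1 (ENSMUSG00000016933, chromosome 2, 160573220 to 160617680, plus strand), the broadly expressed γ isoform, averaged 6.59 ± 1.87 and 6.04 ± 4.36 CPM in fl/fl, and 5.22 ± 1.71 and 5.28 ± 3.04 CPM in cKO BMDCs (SD, n = 3). Its log2 fold change with the block was -0.30 (SE 0.41) and -0.16 (SE 0.37), respectively. The weakly covered Zhx3 (3 to 105 reads) overlaps Plcg1 on the other strand. Plcb4 held 1.63, 1.09 and 0.699 times its untreated level after LPS in cKO replicates 1, 2 and 3, with a log2 fold change of 0.05 (SE 0.59, edgeR adjusted p = 0.967) with the block and -0.08 without it. Plcb1 in cKO BMDCs had a log2 fold change of 0.09 (SE 1.43) with the block.
The LPS response was then compared between the genotypes by the interaction term over all 12 libraries. None of the 5 genes other than Plcb4 passed it, with an edgeR adjusted p of 1 for each both without and with the block. For Plcg2 the log2 difference between the responses (cKO minus fl/fl) was 0.43 (SE 0.70) without and 0.49 (SE 0.39) with the block, and for Plcb2 it was -0.05 (SE 1.01) and -0.02 (SE 0.29). Over all 13752 genes tested, edgeR called 0, with 97 genes at an unadjusted p under 0.05 without and 272 with the block, and DESeq2 also called 0 (150 genes at an unadjusted p under 0.05).

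**Figure D3:**
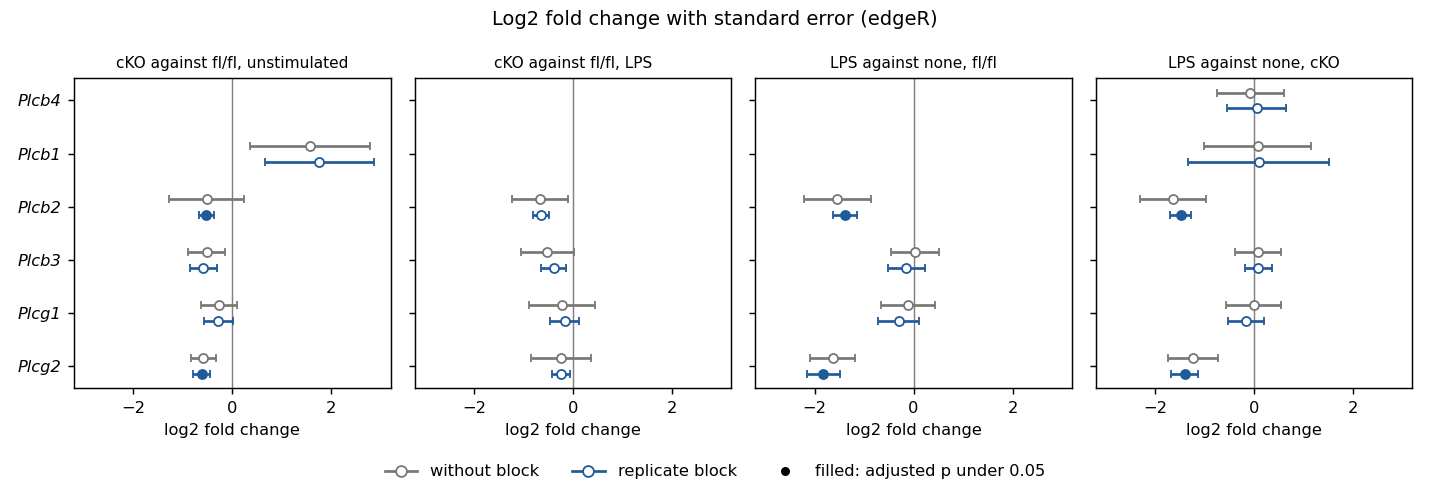
Log2 fold change (x axis) with SE for each phospholipase C gene that passed the filter, between the genotypes (2 left panels) and after LPS (2 right panels), without the block (grey) and with it (blue), filled where the adjusted p is under 0.05. Plcb4 between the genotypes is left out because it was picked on that contrast. Plcg2 and Plcb2 lie near -1.4 to -1.8 after LPS with the block and are filled in both genotypes.

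Between the genotypes, Plcg2 and Plcb2 were somewhat lower in unstimulated cKO BMDCs. Without the block, edgeR called 0 of the 5 genes other than Plcb4 at an adjusted p under 0.05 and 0 of the 12876 genes tested (2159 at an unadjusted p under 0.05). DESeq2 called 0 of these 5 genes, and 703 genes higher and 143 lower of all genes. With the block, 2 of 5 were called lower, where 20.2% of all genes were called in either direction and 8.16% were lower. Plcg2 had a log2 fold change of -0.62 (SE 0.17, edgeR adjusted p = 0.0425) and was lower in all 3 pairs, with cKO to fl/fl ratios of 0.651, 0.482 and 0.781. Plcb2 had a log2 fold change of -0.52 (SE 0.15, edgeR adjusted p = 0.0419) and was also lower in all 3 pairs, with ratios of 0.783, 0.587 and 0.651. The 6 genes have between 4298 and 7596 exon bases, where the median of the genes tested was 3176. With an offset for exon length added to the block, neither gene was past the threshold (Plcg2 -0.44, edgeR adjusted p = 0.107, Plcb2 -0.30, adjusted p = 0.231). With the block, the call of Plcb2 was also lost without any 1 of the replicate numbers (adjusted p between 0.0837 and 0.198), and that of Plcg2 without replicate 1 (adjusted p = 0.152) or 2 (adjusted p = 0.215). Plcb3 (-0.58, adjusted p = 0.158 with the block) and Plcg1 (-0.28, adjusted p = 0.517) did not pass.
After LPS, none of the 4 genes tested was called with the block, where 10.1% of all genes were called and 3.16% were lower, nor by edgeR without it, where 0 of 12441 genes were called (1212 at an unadjusted p under 0.05), nor by DESeq2. Plcb2 was lower in cKO BMDCs in all 3 pairs (0.729, 0.621 and 0.608), with a log2 fold change of -0.65 (SE 0.17, edgeR adjusted p = 0.0549) with the block. Plcg2 had a log2 fold change of -0.24 (SE 0.18, adjusted p = 0.420) and was lower in 2 of 3 pairs. The unstimulated fl/fl and cKO libraries also enter the LPS comparisons, so these fold changes are not independent of each other. With the block, 3 of 10 macrophage markers were higher and 3 lower in unstimulated cKO BMDCs (12.1% and 8.16% of all genes). With LPS, 0 were higher and 2 lower (6.98% and 3.16% of all genes). Their sum after LPS ranged from 1169 to 1379 CPM in fl/fl and from 554 to 943 CPM in cKO BMDCs. Without LPS the ranges overlapped. The part of these cells was not tested.

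Genes that act before and after phospholipase C were followed with 8 lists of 96 genes in all. Of these, 12 had under 1 CPM in every unstimulated fl/fl library, 15 in LPS-treated fl/fl, 12 in unstimulated cKO and 13 in LPS-treated cKO libraries. After LPS, 1 of 84 listed genes tested rose and 13 fell in fl/fl BMDCs with the block (median log2 fold change -0.39, against -0.03 for all genes, of which 6.33% rose and 6.43% fell). In cKO BMDCs, 4 of 85 rose and 20 fell (median -0.32, against -0.01 for all genes, of which 10.2% rose and 9.93% fell). Without the block, edgeR called Fgr and Gna15 lower in fl/fl and Fgr in cKO BMDCs. DESeq2 called 10 genes lower in fl/fl, and 4 higher and 9 lower in cKO BMDCs. Over all genes, DESeq2 called 1070 higher and 896 lower of 12744 in fl/fl, and 856 higher and 825 lower of 12687 in cKO BMDCs. The counts with the block depended on the replicate numbers. When replicate 1, 2 or 3 was left out, 8, 4 and 42 listed genes were called in fl/fl and 4, 13 and 33 in cKO BMDCs. The calls over all genes moved with them. In fl/fl BMDCs, 494, 299 and 3096 of all genes rose and 436, 256 and 3275 fell. In cKO BMDCs, 458, 650 and 2019 rose and 378, 714 and 2042 fell. Between 12872 and 13010 genes were tested in these fits. The summed macrophage markers, given above, fell in the same comparisons. Of the 14 and 24 genes called with the block, 13 were the same, that is 92.9% of the calls in fl/fl and 54.2% of those in cKO BMDCs.
Among the Gq proteins, 1 of 3 tested fell in fl/fl and 1 of 4 in cKO BMDCs, in both cases Gna15, which encodes the promiscuous Gα15 of blood cells. It measured 21.1, 21.7 and 57.3 CPM in unstimulated and 1.51, 1.38 and 4.22 CPM in LPS-treated fl/fl libraries, with a log2 fold change of -3.84 (SE 0.24, edgeR adjusted p = 0.00414 with the block). In cKO libraries it measured 23.2, 12.4 and 43.0 CPM without and 0.851, 0.404 and 6.41 CPM with LPS (log2 fold change -4.01, adjusted p = 0.0034 with the block).
Of the tyrosine kinases and adaptors that activate PLCγ, 3 of 15 fell in fl/fl BMDCs (Fgr, Btk and Grap2). In cKO BMDCs, 7 of 15 fell and 1, the adaptor Blnk, rose. The Src-family kinase Fgr measured 50.1, 49.7 and 45.7 CPM without and 10.4, 8.66 and 15.1 CPM with LPS in fl/fl, and 43.7, 35.5 and 42.9 CPM without and 2.19, 7.59 and 7.86 CPM with LPS in cKO libraries. No LPS-treated library reached an untreated one of its genotype, as was the case for 15.9% (fl/fl) and 13.4% (cKO) of all genes tested. The log2 fold changes of Fgr were -2.12 and -2.99 with the block (edgeR adjusted p = 0.00866 and 0.00529). Blnk rose by 1.65 on the log2 scale in cKO BMDCs (adjusted p = 0.0218 with the block) and had a log2 fold change of 2.25 in fl/fl BMDCs, where it did not pass (adjusted p = 0.0953). Blnk is also a B cell gene, and its unstimulated level was lowest in replicate 3 (0.721 CPM in fl/fl and 3.12 CPM in cKO), where B cell markers were lowest too. Grap2 was singled out after its values were seen, having the largest fitted drop of the lists (-6.31 in fl/fl and -5.63 in cKO BMDCs). It was between 0.321 and 5.80 CPM in untreated and at most 0.162 CPM in LPS-treated libraries, so its fitted fold depends on counts near 0.

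Of the diacylglycerol effectors and kinases, 5 of 21 fell in fl/fl and 6 of 21 in cKO BMDCs and none rose. In fl/fl BMDCs these included Rasgrp4, a Ras activator of mast cells and myeloid cells (-3.18, edgeR adjusted p = 0.00599 with the block), and the diacylglycerol kinase gene Dgkd (adjusted p = 0.0164), which ranged from 28.7 to 40.5 CPM without and from 5.28 to 16.5 CPM with LPS. In cKO BMDCs they included the protein kinase C gene Prkcb (-1.78, adjusted p = 0.00298 with the block) and Card9 (-1.59, adjusted p = 0.00685), which links C-type lectin receptors to NF-κB. Rasgrp4 was higher in replicate 3 than in replicates 1 and 2 of each group, as were the mast cell and basophil markers, and their part in its values was not tested. Of the IP3 receptors and calcium entry genes, 1 of 10 rose in both genotypes, the IP3 receptor Itpr2. It measured 13.3, 14.5 and 28.6 CPM without and 27.5, 34.1 and 59.7 CPM with LPS in fl/fl, and 6.51, 8.67 and 15.4 CPM without and 22.6, 31.2 and 29.9 CPM with LPS in cKO libraries. The log2 fold changes were 1.12 and 1.48 (edgeR adjusted p = 0.0229 and 0.0075 with the block). None of these genes fell in fl/fl and 2 fell in cKO BMDCs (Stim1 and Atp2a2). Of 14 genes for PIP2 supply, 2 fell in fl/fl BMDCs, and 1 fell and 1 rose in cKO BMDCs, where the phosphatidylinositol 4-kinase gene Pi4k2a rose by 0.67 on the log2 scale (adjusted p = 0.0389 with the block). Of 9 calcineurin and NFAT genes tested, 1 fell in fl/fl, and in cKO BMDCs 2 fell and Ppp3cc, a catalytic calcineurin subunit, rose by 1.02 (adjusted p = 0.0133 with the block). Of 8 IP3 kinases and phosphatases, 1 fell in each genotype, the lipid phosphatase gene Inpp5d. None of the 4 other phospholipase C genes tested passed the test in either genotype.

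**Figure D4:**
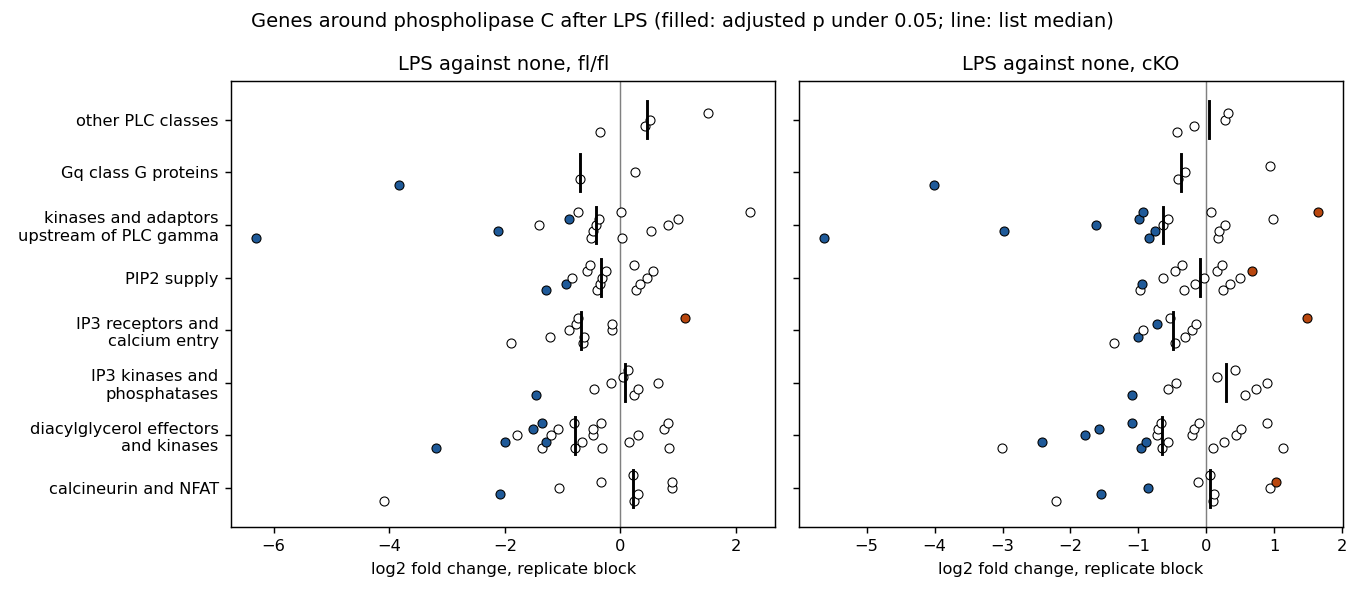
Log2 fold change after LPS (x axis, blocked fit) for each of the 8 pathway lists (y axis) in fl/fl (left) and cKO BMDCs (right). Points are genes, filled where the adjusted p is under 0.05, and black lines are list medians. Most filled points lie below 0, and Itpr2 lies above 0 in both genotypes.

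Between the genotypes, edgeR made 0 calls in the same lists without the block, whereas DESeq2 called 1 gene higher and 2 lower in unstimulated cKO BMDCs and 0 after LPS. With it, 3 of 85 genes were higher and 11 lower in unstimulated cKO BMDCs (median log2 fold change -0.30, against -0.07 for all genes, of which 12.1% were higher and 8.16% lower). The higher genes were Tyrobp (0.88), Lat2 (0.66) and Pitpnb (0.58). Tyrobp, which encodes the ITAM adaptor DAP12, ranged from 801 to 988 CPM in fl/fl and from 1497 to 1823 CPM in cKO libraries (edgeR adjusted p = 0.0127 with the block). The lower genes included Cdipt, the phosphatidylinositol synthase (-0.75, adjusted p = 0.0157 with the block), Itpr2 (-0.83, adjusted p = 0.018), Inpp5d (-0.69, adjusted p = 0.018) and the guanine nucleotide exchange factor Vav1 (-0.77, adjusted p = 0.0216). Vav1 was 44.0, 45.4 and 44.3 CPM in fl/fl and 25.8, 20.0 and 30.7 CPM in cKO libraries. After LPS, 0 of 82 were higher and 6 lower (median -0.26, against -0.09 for all genes, of which 6.98% were higher and 3.16% lower), among them Vav1 (-0.85, edgeR adjusted p = 0.0252 with the block), the diacylglycerol kinase Dgkz (-0.84), the IP3 kinase Itpkb (-0.63) and Cdipt (-0.68). With the block, 2, 0 and 25 genes were called without LPS when replicate 1, 2 or 3 was left out, and 0, 0 and 4 with LPS. Over all genes, 837, 386 and 1945 were then higher and 171, 65 and 1548 lower without LPS. With LPS, 3, 203 and 883 were higher and 0, 25 and 515 lower. Between 12390 and 13082 genes were tested in these fits. With the length offset added to the block, 4 genes were called without LPS, all lower, and 2 with LPS, both lower. Over all genes, 1021 were then higher and 544 lower of 12236 without LPS, and 625 higher and 248 lower of 11818 with LPS.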

How the data were processed

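MHCII+ BMDCs were sequenced as poly(A)-selected, single-end libraries with reads of 59 bases after 15 PCR cycles. According to the study's methods, the authors mapped and counted the reads in CLC Genomics Workbench with default settings on GRCm39. The labels name GRCm38, but the gene positions in the files match GRCm39. The annotation release is not given in the sources used here. The library kit is not stated to keep strand. The authors deposited raw read counts per gene without normalization (total gene reads, with their unique, exon, exon-exon and intron parts) and RPKM values, which the authors' software computed from exon reads, exon length and library depth. Exon length, another column of the deposited files, was used for the length offset.

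Total gene reads were tested in edgeR 4.0.16 under R 4.3.3 (quasi-likelihood test, TMM, minimum count 10 in the low count filter, Benjamini-Hochberg over all genes tested, threshold 0.05). The value with the replicate number as a block is printed beside the value without it. The numbers come from the library labels. Deviations from the group means correlated between same-numbered libraries in every pair (r between 0.262 and 0.745, above the limit of 0.1 set for pairing), so the numbers were taken to pair the libraries. Differently numbered libraries were not compared in this way. Deviations within a group cancel out, and replicate 3 stood apart in every group. The check therefore cannot show that replicates 1 and 2 are paired by number. CPM values use TMM factors over all 12 libraries. Log2 CPM for correlations used a prior count of 2. Intervals of shares are Wilson intervals at 95%. No column of other samples was used. The procedure was tested on simulated counts.

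The members and gene lists were chosen with earlier results of these data known. Named genes are the 6 members, Itgb2, for each comparison the 4 or fewer pathway genes that rose and that fell with the lowest adjusted p in the blocked fit, the 5 genes closest to Plcb4, genes within 1 Mb of Plcb4 with over 10 reads, and genes with the same 10-fold pattern. Grap2, Btk, Stim1, Atp2a2 and Lamp5 were named after their values were seen. Sequences were read from GRCm39 with GENCODE vM39.

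The alternatives were DESeq2 1.42.0, edgeR on all 12 libraries, RLE factors, library size scaling, no filter on low counts, unique gene reads, the replicate block, the block with an exon length offset (lowess, span 0.3), and each library or replicate 3 left out. Leaving out each replicate number with the block was added after the data had been seen.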

Additional observations from a re-analysis of the deposited data

How the results depend on the processing

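With the replicate block, the members called were 2 between unstimulated genotypes, 2 after LPS in fl/fl and 2 after LPS in cKO BMDCs, against 0 without pairing, and the pathway genes called were 14 and 6 between the genotypes (unstimulated and LPS) and 14 and 24 after LPS (fl/fl and cKO), against 0, 0, 2 and 1. The block with the exon length offset gave 0, 2 and 2 members and 4, 2, 16 and 23 pathway genes. After LPS, this fit called 905 higher and 799 lower of all 12122 genes in fl/fl, and 1465 and 1162 of 12049 in cKO BMDCs. DESeq2 called 1 member (Plcg2) after LPS in fl/fl and 3 (unstimulated genotypes), 10 (LPS, fl/fl) and 13 (LPS, cKO) pathway genes. After LPS in fl/fl and cKO BMDCs, edgeR on all 12 libraries called 7 and 6 pathway genes, library size scaling 4 and 3, and no filter on low counts 4 and 4. Over all genes, edgeR on all 12 libraries called 568 higher and 500 lower in fl/fl, and 513 and 470 in cKO BMDCs. Library size scaling called 143 and 304, and 185 and 297. Without the filter on low counts, the calls were 378 and 313, and 436 and 369. Left-out libraries or replicate numbers gave 0 to 1 members (unstimulated genotypes), 0 to 2 (LPS, fl/fl) and 0 to 2 (LPS, cKO), and 0 to 25, 0 to 4, 0 to 43 and 0 to 33 pathway genes in the order above. Without replicate 3 in both groups and without a block, 1 member (Plcg2) was called between unstimulated genotypes and 2 (Plcb2 and Plcg2) after LPS in either genotype. The pathway genes called after LPS were then 43 and 16 in fl/fl and cKO BMDCs. Of all genes in these fits, 1033 were higher and 348 lower of 13068 between unstimulated genotypes. After LPS, 3000 rose and 3140 fell of 12924 in fl/fl, and 1021 rose and 1028 fell of 12872 in cKO BMDCs. The cause was not tested.

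Of the log2 fold changes of single members, those that changed sign were past no threshold in the fit without the block or in the fit with the opposite sign. After LPS in fl/fl BMDCs, Plcb3 was -0.21 with library size scaling and -0.14 with the block. After LPS in cKO BMDCs, Plcb4 was 0.049 with the block and 0.13 with the length offset, Plcb1 -0.14 and Plcb3 -0.13 with library size scaling, and Plcg1 0.016 on all 12 libraries. Between the genotypes with LPS, Plcg1 was 0.021 with the block and the length offset. Library size scaling moved the median of all genes to -0.44 (unstimulated) and -0.37 (LPS) between the genotypes and to -0.32 (fl/fl) and -0.23 (cKO) after LPS. With libraries left out, values ranged as follows. Between unstimulated genotypes, Plcb2 ranged from -1.48 to 0.45. With LPS, Plcb3 ranged from -0.91 to 0.20, Plcg1 from -0.74 to 0.55 and Plcg2 from -0.91 to 0.45. After LPS in fl/fl BMDCs, Plcb3 ranged from -0.70 to 0.33 and Plcg1 from -0.89 to 0.23. After LPS in cKO BMDCs, Plcb4 ranged from -0.35 to 0.65, Plcb1 from -1.14 to 1.20, Plcb3 from -0.34 to 0.54 and Plcg1 from -0.57 to 0.37. The interaction ranged from -1.10 to 0.92 for Plcb2 and from -0.21 to 1.03 for Plcg2.

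Plcb4 and Plcb1 in fl/fl BMDCs lie at or near the floor of 3 reads, which limits any statement on their change there.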
